A study of Mus musculus with 41 samples.

Results

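The values of 10 mouse genes of ribosome quality control and of the mRNA decay that goes with it were followed through ribosome profiling and RNA sequencing: Zfp598, Ascc3, Nemf, Ltn1, Vcp, Ankzf1, Skiv2l, Ttc37, Wdr61 and Xrn1. The genes were chosen by their known place in the pathway, with earlier results of these data known, and each was found by its symbol among the 55385 genes with RNA values and by its gene identifier among the 22438 genes with footprint values. The series holds 41 libraries, of which 30 are of ribosome footprints and 11 of RNA. It asks what happens to translation when a ribosome rescue factor (Hbs1l or Pelo) or a factor of nonsense-mediated decay (Upf2) is removed. Footprints were counted over coding sequences and are given as CPM, their share of a library's counts on a fixed scale. CPM of single genes was adjusted by the trimmed mean of M values within each comparison. Levels per kb were adjusted over all footprint libraries together, with MEF controls summed, and sums of markers were not adjusted.

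Embryos at E8.5 (C57BL/6NJ) were Hbs1l -/- or Wildtype, with 3 libraries each, and every library pooled several whole embryos. Cerebella at P14 (C57BL/6J) came from Atoh-Cre;Hbs1l cKO mice and Atoh-Cre;Hbs1l +/+ controls, with 3 libraries of 1 mouse each, and this Cre is active in the granule cell lineage. The methods give these cKO mice 1 floxed and 1 deleted Hbs1l allele, so their other cells carry 1 deleted allele too, unlike the controls. Mouse embryonic fibroblasts (MEFs, C57BL/6) carried CAG-Cre ER, a tamoxifen-inducible recombinase, with Hbs1l cKO, Pelo cKO, Upf2 cKO or no floxed allele, and all of them, controls included, were treated with Tamoxifen. Cerebella and MEFs also carried the n-Tr20 B6J/B6J background per the study's methods, a strain mutation of an arginine tRNA, also in the controls. The methods give Hbs1l MEFs 1 floxed and 1 deleted allele, and Pelo and Upf2 MEFs floxed alleles alone. Each MEF genotype has 3 footprint libraries from single embryos and 3 control libraries sequenced in its own pool. RNA was sequenced only in MEFs, from 3 control, 3 Hbs1l, 2 Pelo and 3 Upf2 libraries. In bulk libraries, fewer cells of a type and less RNA per cell cannot be told apart.

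Control MEF footprint libraries that carry the same number in the 3 pools were nearly alike in their counts (chi-square per gene 1.10 to 1.19 over 9 such pairs, and 4.06 to 12.6 over the 27 pairs of unlike numbers), as repeat runs would be, so the 3 MEF comparisons share their controls. The 3 RNA comparisons share 1 set of controls as well. Footprint libraries held 2634480 to 7298812 counts in embryos, 10919139 to 22591768 in cerebella and 5782990 to 25607974 in MEFs, and RNA libraries held 22713643 to 86425762. Hbs1l footprints fell by 3.60 in embryos, by 1.5 in cerebella and by 4.15 in MEFs on the log2 scale, and Pelo footprints fell by 3.78 in Pelo MEFs. In the libraries labelled Upf2, the Upf2 total instead was higher, at 115, 113 and 119 CPM of footprints against 54.9, 49.2 and 58.3. Upf2 RNA was higher as well, by 1.33 on the log2 scale (SE 0.24). The counts cannot show which exons were read, so these are called libraries labelled Upf2 throughout.

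When a ribosome halts, the next ribosome runs into it, and the joined surface of the pair is what the cell recognises. Zfp598, a ubiquitin ligase, marks the small subunit of collided ribosomes, and Ascc3, a helicase of the ASC-1 complex, splits the leading ribosome. The split leaves a nascent chain on the large subunit, where Nemf holds the peptidyl-tRNA and extends the chain, Ltn1 (listerin) adds ubiquitin, the ATPase Vcp pulls the chain away and Ankzf1 cuts it from its tRNA. Pelo and Hbs1l rescue ribosomes that have reached the end of an mRNA or have stalled on it. The mRNA is then degraded from its end by the exosome, into which the Ski complex (the helicase Skiv2l, the scaffold Ttc37 and the small repeat protein Wdr61, which also belongs to the Paf1 transcription complex) feeds it, and from its start by the exonuclease Xrn1.

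On GRCm38, Zfp598 (ENSMUSG00000041130.10, chr17:24669687-24682016, forward strand) and Skiv2l (ENSMUSG00000040356.16, chr17:34839228-34850210, reverse strand) share chromosome 17, and Wdr61 (ENSMUSG00000061559.15, chr9:54714735-54734519, reverse strand) and Xrn1 (ENSMUSG00000032410.13, chr9:95954760-96057803, forward strand) share chromosome 9. Ltn1 (ENSMUSG00000052299.9) lies at chr16:87376651-87432612 on the reverse strand, Ankzf1 (ENSMUSG00000026199.17) at chr1:75192151-75199387 and Ttc37 (ENSMUSG00000033991.9) at chr13:76098734-76190316, both on the forward strand. Ascc3 is ENSMUSG00000038774.9 at chr10:50592669-50851485 on the forward strand, Nemf is ENSMUSG00000020982.9 at chr12:69310522-69357165 on the reverse strand and Vcp is ENSMUSG00000028452.7 at chr4:42979963-43000507 on the reverse strand. Their transcripts differ in base composition, which bears on the RNA values described later. The G and C content of the main transcript was 59.0% for Zfp598, 57.8% for Skiv2l, 53.8% for Ankzf1, 49.8% for Vcp and 45.4% for Wdr61, and it was 41.9% to 42.8% for Xrn1, Ascc3, Nemf, Ltn1 and Ttc37. To show this difference, 90 coding bases from the start of the longest coding exon are given for 4 genes, with G and C in capitals. Such stretches do not follow the transcript order in every member, since they held 61.1% G and C in Wdr61, 52.2% in Ttc37 and 47.8% in Ankzf1. Zfp598 is shown from exon 9 (chr17:24679509-24679598, 63.3% G and C), Skiv2l from exon 18 (chr17:34842953-34843042, 53.3%), Nemf from exon 23 (chr12:69322261-69322350, 46.7%) and Ascc3 from exon 4 (chr10:50617712-50617801, 44.4%), each 5′ to 3′ on the gene's own strand of GRCm38.
Zfp598: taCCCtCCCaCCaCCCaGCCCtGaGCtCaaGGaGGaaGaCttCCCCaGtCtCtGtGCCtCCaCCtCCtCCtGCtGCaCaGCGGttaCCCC
Skiv2l: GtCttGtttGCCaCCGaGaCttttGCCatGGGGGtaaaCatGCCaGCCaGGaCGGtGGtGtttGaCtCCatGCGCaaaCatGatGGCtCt
Nemf: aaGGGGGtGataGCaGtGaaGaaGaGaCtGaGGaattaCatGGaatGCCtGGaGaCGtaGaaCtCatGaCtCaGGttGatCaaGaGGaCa
Ascc3: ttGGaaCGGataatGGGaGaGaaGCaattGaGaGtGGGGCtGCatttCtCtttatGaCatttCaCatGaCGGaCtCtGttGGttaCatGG

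One gene needs a caution on counting. Of the 28-base windows of the Vcp coding sequence, 90% also occur in Vcp-rs, a processed pseudogene, while the share was 4.05% for Skiv2l (with Skiv2l-ps1), 0.149% for Zfp598 and 0 for the other members. A footprint that matches both places may be dropped or split by the counting, so Vcp footprint levels are uncertain, also where they are set beside those of other genes. Within the 90 bases of Vcp exon 14 (chr4:42983060-42983149, reverse strand) that follow, 16 of 63 windows are shared, and capitals again mark G and C.
Vcp: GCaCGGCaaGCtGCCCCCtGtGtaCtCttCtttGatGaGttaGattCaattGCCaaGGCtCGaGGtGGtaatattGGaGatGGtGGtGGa

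In control MEFs, the gene with the highest footprint level per length of coding sequence was Wdr61, at 128 ± 3.4 CPM per kb (SD, n = 3), followed by Vcp at 51.3 ± 5.8, Ltn1 at 34.7 ± 0.74 and Nemf at 29.3 ± 1.5. The helicase and the scaffold of the splitting and Ski complexes came next, Ttc37 at 21.9 ± 0.85 and Ascc3 at 20.7 ± 0.81, and their libraries overlapped. Zfp598 stood at 19.0 ± 0.59, Skiv2l at 14.2 ± 1.0 and Xrn1 at 13.8 ± 0.66, of which the last pair overlapped, and Ankzf1 was lowest at 5.62 ± 0.23. The 3 Ski subunits therefore differed in level by the order Wdr61, Ttc37 and Skiv2l in MEFs. In control cerebellum, Wdr61 led again at 63.3 ± 2.0 CPM per kb, but Skiv2l, at 19.2 ± 3.5, stood above Ttc37, at 5.94 ± 1.7, and Ascc3, at 4.61 ± 1.4, was next to lowest. In control embryos the order ran from Wdr61 at 150.3 ± 11.8 through Vcp at 34.9 ± 3.4 and Ltn1 at 24.6 ± 1.2 to Ttc37, lowest at 7.21 ± 0.53.

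**Figure D1:**
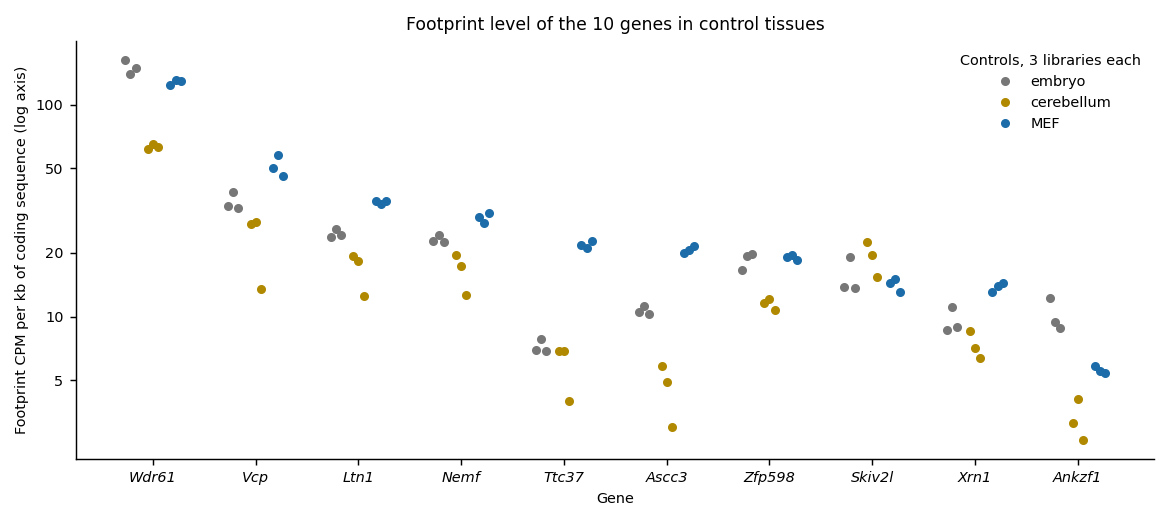
Footprint level of the 10 genes in control libraries, in CPM per kb of coding sequence on a log axis, with 1 point per library for embryo, cerebellum and MEF (3 each). The MEF points of Ascc3 and Ttc37 stand farthest above those of the other tissues, and those of Ltn1, Nemf, Vcp and Xrn1 lie above them too. Skiv2l is the gene whose cerebellar points reach above those of MEFs.

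Between control tissues, most genes of the genome differed: 81.0% of 15111 genes passed the test between MEF and cerebellum, 69.0% between MEF and embryo and 80.1% between embryo and cerebellum (edgeR, adjusted p at most 0.05). Tissue, strain, age and sequencing batch change together in these contrasts and cannot be told apart. Per the study's methods, the size range of fragments cut from the gel also differed between cerebella and the other libraries. All 10 genes passed between MEF and cerebellum, 9 higher in MEF, with a median of 0.91 on the log2 scale where the median of all genes was −0.15. The largest differences were those of Ascc3 (2.13, SE 0.18) and Ttc37 (1.84, SE 0.17). Ascc3 was at 136, 141 and 147 CPM in control MEFs, at 68.5, 74.0 and 67.8 in control embryos and at 41.3, 34.7 and 21.5 in control cerebella, with no overlap between tissues. Skiv2l alone was lower in MEF than in cerebellum (−0.48, SE 0.15), which did not pass after correction for G and C content (−0.28, adjusted p = 0.109). Against embryo, 6 genes were higher in MEF and Ankzf1 was lower (−0.80, SE 0.19), while Zfp598, Skiv2l and Wdr61 did not pass. Of those 6, Ltn1, Nemf, Vcp and Xrn1 did not pass after the correction, and Ascc3 and Ttc37 did. DESeq2 called Wdr61 lower in MEF than in embryo (−0.29, adjusted p = 0.0029) and did not call Nemf or Vcp (adjusted p = 0.124 and 0.065). Against cerebellum, 7 genes were higher in embryo, led by Ankzf1 (1.52, SE 0.20), and Skiv2l was lower (−0.40, SE 0.16; −0.12 after the correction, adjusted p = 0.507). Without cerebellum replicate 1 or 2 or embryo replicate 1 or 3 that Skiv2l call was lost, as was Nemf without embryo replicate 2 and Vcp in 7 of 9 such fits, falling to 0.24 without cerebellum replicate 3. Against embryo, Nemf in MEF was lost without MEF or embryo replicates 1 or 3, and Vcp without MEF replicate 2 or embryo replicates 1 or 3.

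In Hbs1l -/- embryos, none of the 10 genes passed the test, which called 1.87% of 11416 genes. Ascc3 came nearest, at 93.0, 161 and 141 CPM in the mutant against 82.6, 89.5 and 81.8 in the control. Every mutant library lay above every control library, by 0.63 on the log2 scale (SE 0.19), with an adjusted p of 0.109 in edgeR. The adjusted p was 0.0621 in DESeq2, 0.0328 when all genes with at least 1 count were tested, and 0.168 after a correction for G and C content, which lowered the difference to 0.42. Embryo footprints moved with base composition, with a median of 0.20 over genes within 1 percentage point of Ascc3 and of −0.25 over those like Zfp598. Ascc3 was the 1 member with an unadjusted p under 0.05, as for 18.6% of all genes, and the 1 member whose groups did not overlap, as for 23.8% of all genes. The other members ran from −0.29 for Skiv2l to 0.32 for Nemf, with a median over the 10 genes of 0.16 against 0.0083 over all genes. Marker levels moved with genotype in these embryos. The summed level of 6 trophoblast markers ran from 78.6 to 827 CPM in the mutants against 3.97 to 6.66 in controls (6 of 6 markers above 1 CPM against 2 of 6, with Gcm1 at 0 in controls), 5 erythroid markers from 3189 to 8130 against 13085 to 17109 (5 of 5 in both) and 6 cardiomyocyte markers from 614 to 922 against 1580 to 1875 (6 of 6 in both). Of the other lists, 6 fibroblast markers (606 to 770 against 892 to 990 CPM, 6 of 6 in both), 4 smooth muscle markers (473 to 607 against 727 to 766, 3 of 4 against 4 of 4), 4 chondrocyte markers (86.8 to 153 against 229 to 306, 3 of 4 in both) and 5 cerebellar glia markers (17.6 to 20.8 against 25.4 to 36.6, 4 of 5 in both, Gfap at 0) were lower in the mutants without overlap. Those of 5 endothelial markers were higher without overlap (448 to 660 against 408 to 421, 5 of 5 in both), and the remaining 5 lists overlapped. Their part in the Ascc3 value was not tested.

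In Atoh-Cre;Hbs1l cKO cerebella, none of the 10 genes passed either, and none had an unadjusted p under 0.05, where 13.4% of 14430 genes did. The test called 0.0624% of them. Of the 10 genes, 9 were lower in the mutant, with a median of −0.18 against 0.00024 over all genes. Wdr61 was the only one whose groups did not overlap, against 18.3% of all genes, at 62.4, 57.2 and 56.2 CPM against 67.4, 70.5 and 67.8, a difference of −0.23 (SE 0.10, adjusted p = 0.383). For most others, replicate 3 of each genotype was low: Vcp was at 66.2, 48.1 and 38.5 CPM in the mutant and at 78.6, 78.6 and 38.1 in the control, and Ascc3 at 35.6, 30.1 and 22.5 against 45.9, 37.8 and 23.3. For both, the spread within a genotype was wider than the difference between genotypes. The summed level of 4 Purkinje cell markers ran from 4449 to 5275 CPM in the mutants and from 6302 to 8472 in controls (4 of 4 above 1 CPM in both), and that of 5 granule cell progenitor markers from 139 to 207 against 98.5 to 106 (5 of 5 in both). That of 5 macrophage markers ran from 155 to 176 against 114 to 141 (5 of 5 in both), and the other 10 lists overlapped. The part of these markers in the members' values was not tested.

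The MEF libraries gave the members' clearest differences. Zfp598 and Ascc3, which act on the collided ribosome, and Skiv2l, the helicase of the Ski complex, had more footprints in Hbs1l, in Pelo and in Upf2-labelled MEFs than in the control libraries of the same pool. Xrn1, Nemf and Ttc37 rose in some of the genotypes, Ltn1 in 1, Vcp went in different directions, and Ankzf1 did not pass in any. Since the controls are repeat runs of the same libraries, the 3 comparisons are not independent, and each is given with its own values.

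**Figure D2:**
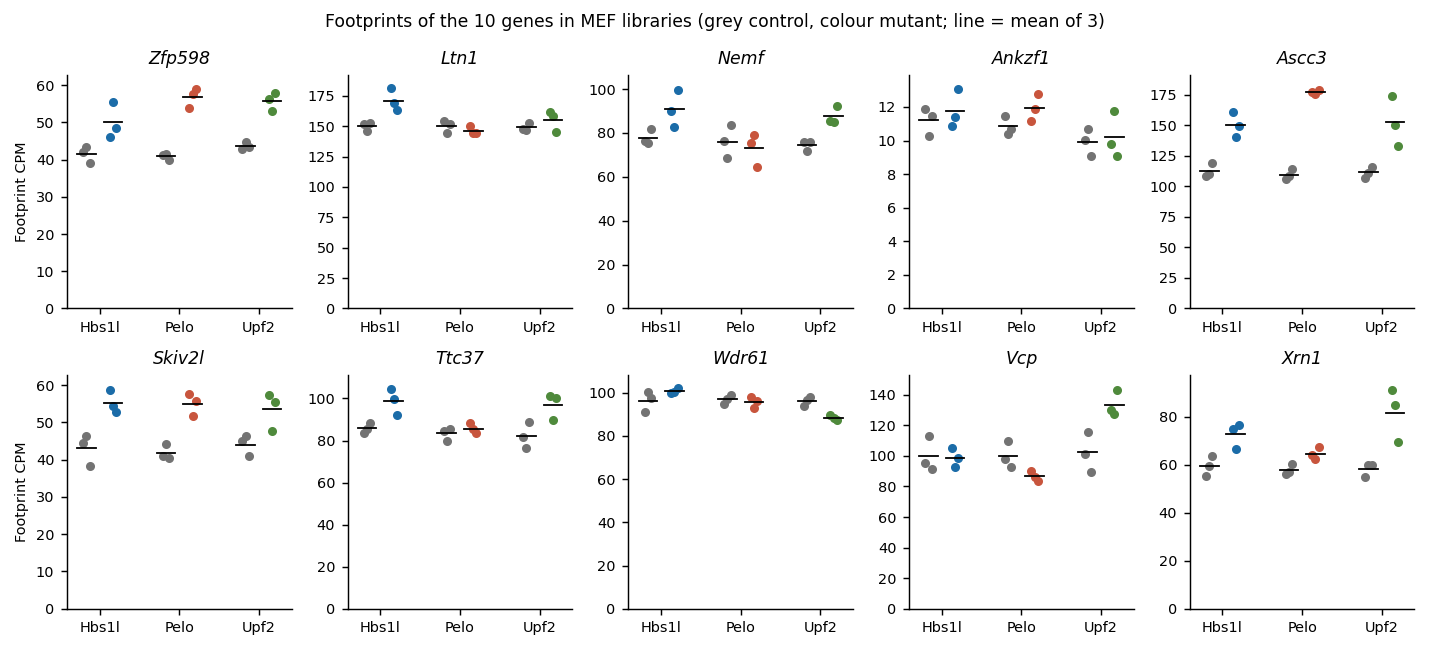
Footprint CPM of each gene in MEF libraries, from 0, with controls of each pool in grey and mutants in colour (3 points each) and the mean as a line. Ascc3 in Pelo MEFs lies at 176 to 179 CPM, above every control, and Ankzf1 overlaps its controls in each genotype.

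In Hbs1l MEFs, 7 of the 10 genes rose and none fell, whereas the test called 34.1% of 11984 genes and 17.4% as higher. With any 1 library left out 2 to 6 members passed, and DESeq2 called 3. The same 7 members did not overlap between the groups, as for 46.4% of all genes, and the median over the 10 genes was 0.22 against −0.0069 over all genes. In Pelo MEFs, 3 genes rose and 1 fell where the test called 44.1% of 12486 genes and 22.9% as higher, and 5 members did not overlap against 55.4% of all genes, so the members' share of 4 in 10 was near the background. In libraries labelled Upf2, 7 genes rose and none fell, against 43.4% of 12166 genes called and 22.3% called as higher, and 8 members did not overlap against 54.1% of all genes. With 1 library left out, 4 to 7 members passed. The median was 0.090 in Pelo and 0.25 in Upf2-labelled MEFs, with 0.0037 and 0.00092 over all genes.

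Ascc3 showed the largest footprint difference of the 10 genes in Pelo MEFs and, before the G and C correction, in Hbs1l MEFs, where Skiv2l (0.41) came before it (0.37) after the correction. It was at 161, 140 and 150 CPM in Hbs1l MEFs against 108, 110 and 120 in their controls, at 178, 176 and 179 against 106, 109 and 114 in Pelo MEFs, and at 174, 151 and 133 against 107, 111 and 116 in Upf2-labelled MEFs. All mutant libraries stood above all of their controls. The fold was 1.34 with Hbs1l (0.42 on the log2 scale, SE 0.07, adjusted p = 0.000664), 1.62 with Pelo (0.70, SE 0.06, adjusted p = 1.6e-05) and 1.37 with the Upf2 label (0.45, SE 0.09, adjusted p = 0.00178). No left-out library removed any of these calls.

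Zfp598 rose by less. Its footprints were at 46.1, 55.6 and 48.5 CPM against 42.0, 43.4 and 39.2 in Hbs1l MEFs, at 53.8, 57.6 and 58.9 against 41.4, 41.5 and 39.9 in Pelo MEFs, and at 56.2, 53.2 and 58 against 43, 44.7 and 43.4 in Upf2-labelled MEFs. Mutants and controls were apart in each comparison, closest with Hbs1l. The log2 differences were 0.26 (SE 0.09, adjusted p = 0.0425), 0.47 (SE 0.07, adjusted p = 0.000514) and 0.35 (SE 0.07, adjusted p = 0.00222). The call with Hbs1l was lost under DESeq2 (adjusted p = 0.0644) and without any 1 of 4 libraries (control replicates 1 and 3, Hbs1l replicates 2 and 3), where it ran down to 0.19.

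Among the large-subunit factors, Nemf was at 90.1, 83.0 and 99.8 CPM against 76.1, 75.4 and 82.0 in Hbs1l MEFs and at 85.3, 85.0 and 92.5 against 75.9, 71.6 and 76.1 in Upf2-labelled MEFs, both 0.23 higher on the log2 scale (adjusted p = 0.0423 and 0.0179). In Pelo MEFs its groups overlapped, at 75.7, 79.0 and 64.7 against 76.3, 68.5 and 83.4 CPM. Ltn1, the ligase that Nemf recruits, rose in Hbs1l MEFs only by the test within each genotype, at 181, 169 and 163 CPM against 152, 146 and 152 (0.19, SE 0.07, adjusted p = 0.041), and gave −0.04 and 0.06 in the other comparisons. With Hbs1l, both calls were lost under DESeq2, that of Ltn1 also after the G and C correction (0.14), and both on leaving out any 1 of 4 libraries (for Ltn1 control replicates 1 and 2 and Hbs1l replicates 1 and 2, for Nemf control replicates 1 and 2 and Hbs1l replicates 1 and 3). Nemf in Upf2-labelled MEFs was lost without control replicate 1 or mutant replicate 3.

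Vcp, the ATPase that acts at the large subunit, was at 105, 93.0 and 98.6 CPM against 95.1, 113 and 91.6 in Hbs1l MEFs, with overlapping groups. In Upf2-labelled MEFs it stood at 130, 128 and 143 against 101, 116 and 89.8, a rise of 0.38 (SE 0.09, adjusted p = 0.00555) that held in each fit with a library left out. In Pelo MEFs it stood at 90.3, 86.3 and 83.8 against 98.2, 110 and 92.5, a fall of 0.21 (SE 0.08, adjusted p = 0.0499) that was lost under DESeq2 (adjusted p = 0.0725), after the G and C correction (adjusted p = 0.0513) and without any of 5 libraries (each but control replicate 3). Ankzf1, the least abundant member with 9.05 to 13.1 CPM in these libraries, gave 0.07, 0.14 and 0.06 with overlapping groups.

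Of the Ski complex, the helicase Skiv2l passed in each genotype, the scaffold Ttc37 with Hbs1l and with the Upf2 label, and the small subunit Wdr61 in none. Differences between these genes were not tested. Skiv2l was at 58.7, 54.3 and 52.7 CPM against 44.5, 46.3 and 38.4 in Hbs1l MEFs (0.36, SE 0.09, adjusted p = 0.00785), at 57.5, 51.6 and 55.8 against 40.9, 44.1 and 40.4 in Pelo MEFs (0.40, SE 0.08, adjusted p = 0.00223), and at 57.2, 47.7 and 55.4 against 44.9, 46.3 and 40.9 in Upf2-labelled MEFs (0.27, SE 0.09, adjusted p = 0.0273). All mutant libraries stood above their controls. The call with Hbs1l was lost only without Hbs1l replicate 1 (adjusted p = 0.0513), and that with the Upf2 label without control replicates 1 or 3 or mutant replicates 1 or 3. Ttc37 rose by 0.20 with Hbs1l (105, 99.5 and 92.3 CPM against 83.6, 85.6 and 88.2, adjusted p = 0.0448) and by 0.24 with the Upf2 label (101, 89.9 and 100 against 81.5, 76.2 and 88.7, adjusted p = 0.0306), each call lost without any 1 of 4 libraries (replicates 1 and 2 of both groups with Hbs1l, control replicates 1 and 2 and mutant replicates 1 and 3 with the Upf2 label), and gave 0.04 with Pelo. With Hbs1l the Ttc37 call was also lost under DESeq2 (adjusted p = 0.0691) and after the G and C correction (0.16). Wdr61 gave 0.07, −0.02 and −0.12, and none passed, although in Upf2-labelled MEFs its 3 libraries, at 89.5, 88.1 and 87.5 CPM, all lay under the controls at 93.6, 96.5 and 97.8 (adjusted p = 0.149).

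Xrn1, which degrades decapped mRNA from the start, was at 74.9, 66.5 and 76.5 CPM against 55.1, 59.3 and 63.7 in Hbs1l MEFs (0.30, SE 0.08, adjusted p = 0.0145), with the call lost without control replicate 1, Hbs1l replicate 1 or Hbs1l replicate 3. In Upf2-labelled MEFs it was at 90.9, 84.6 and 69.5 against 54.6, 59.6 and 60, its largest rise (0.49, SE 0.10, adjusted p = 0.00163). In Pelo MEFs the libraries were also apart, at 64.2, 62.3 and 67.3 against 55.9, 57.0 and 60.3, but the rise of 0.16 did not pass (adjusted p = 0.0837, and 0.0152 after the G and C correction).

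**Figure D3:**
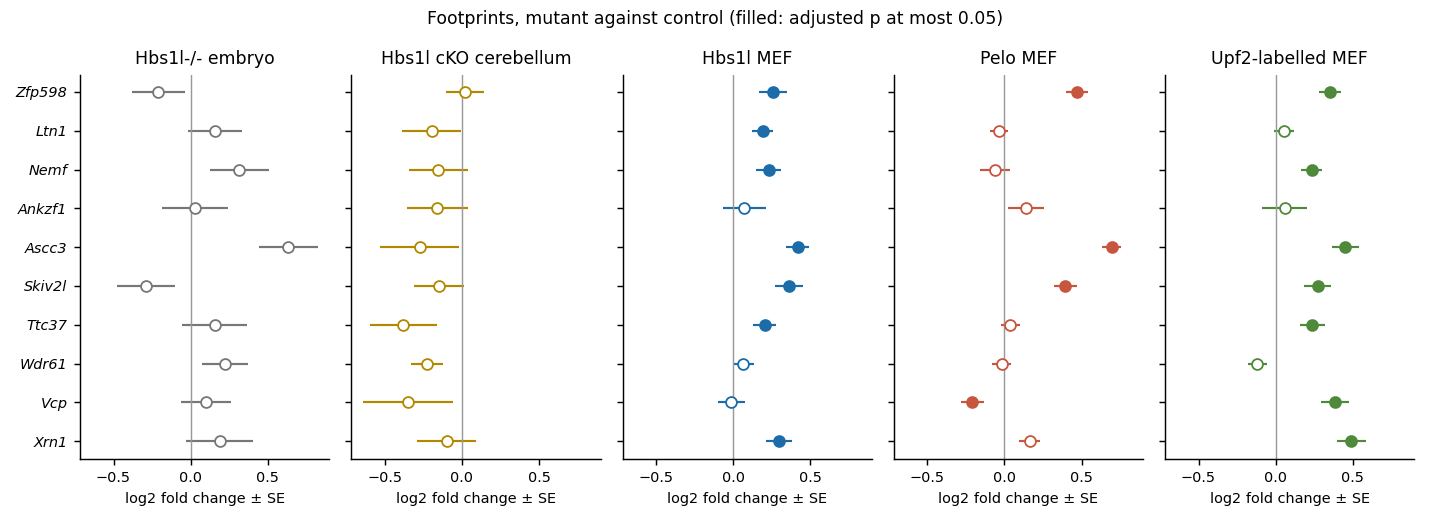
Log2 fold change of footprints, mutant against control, with its standard error, for the 10 genes in 5 comparisons, where filled points passed at an adjusted p of at most 0.05. No point is filled in embryo or cerebellum, 7 are filled in Hbs1l and in Upf2-labelled MEFs and 4 in Pelo MEFs, and the MEF comparisons share controls.

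Marker footprints of the MEF cultures moved with genotype too. The summed footprints of 6 fibroblast markers ran from 18249 to 18856 CPM in controls, and from 22635 to 26908, 24880 to 31105 and 27431 to 29548 in Hbs1l, Pelo and Upf2-labelled MEFs (6 of 6 above 1 CPM in each). Those of 4 smooth muscle markers ran from 20024 to 22296 in controls and from 10992 to 15185 in the mutants (4 of 4 in each), and those of 5 macrophage markers from 49.5 to 76.5 in controls and from 81.3 to 280 in the mutants (5 of 5 in each). Those of 4 chondrocyte markers ran from 526 to 677 in controls and from 286 to 439, 124 to 184 and 305 to 494 in Hbs1l, Pelo and Upf2-labelled MEFs (3 of 4 in each), and those of 5 endothelial markers from 67.8 to 82.0 in controls and from 37.5 to 42.3, 23.3 to 31.1 and 50.9 to 58.9 (2 to 3 of 5). In RNA the fibroblast sum of Upf2-labelled MEFs overlapped the controls (3927 to 4962 against 3540 to 6010 CPM), as did the macrophage sum with the Upf2 label (24.7 to 34.6 against 25.3 to 40.6) and with Pelo (34.9 to 52.2). Of the sums of these 5 lists that were apart in RNA, that of fibroblast markers was higher with Pelo (7676 to 7788), that of smooth muscle markers was lower in each genotype (10810 to 15788 against 16460 to 18869), and in Hbs1l MEFs that of macrophage markers was higher (51.3 to 81.2) and those of endothelial (15.3 to 17.3 against 28.1 to 36.8) and chondrocyte markers (102 to 184 against 194.5 to 267) were lower. The fibroblast sum with Hbs1l, at 5710 to 9522, overlapped. So did the endothelial and chondrocyte sums with Pelo (33.8 to 40.1 and 251 to 275), lower in footprints, and with the Upf2 label (20.8 to 28.3 and 163 to 238). Footprints of 5 granule cell progenitor markers (Atoh1, Gli1, Mki67, Ccnd1 and Mycn) were higher in each genotype. They ran from 730 to 812, 743 to 775 and 649 to 759 CPM against 540 to 631 (3 of 5 above 1 CPM). Those of granule neuron and Purkinje cell markers were lower without overlap with Hbs1l and Pelo. Those of cerebellar glia markers were higher with Pelo and the Upf2 label, and those of cardiomyocyte markers lower with Pelo. Other footprint sums overlapped. The granule cell, Purkinje cell, cerebellar glia and cardiomyocyte lists were made for cerebellum and embryo, and their sums are not read as cell types in MEFs. The part of these markers in the members' values was not tested.

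The genotypes were set against each other in 1 fit of their 9 libraries with the controls of the 3 pools summed. Between Pelo and Hbs1l MEFs, 3 members passed where 19.3% of 12812 genes did: Nemf (−0.31, SE 0.09) and Ltn1 (−0.22, SE 0.06) were lower in Pelo, and Ascc3 was higher (0.25, SE 0.08, adjusted p = 0.0447). Between Pelo and Upf2-labelled MEFs 4 passed, against 29.0% of all genes, namely Vcp (−0.61, SE 0.08, adjusted p = 6.81e-05), Xrn1 (−0.32, SE 0.09) and Nemf (−0.25, SE 0.09), lower in Pelo, and Ascc3 (0.23, SE 0.08), higher in Pelo. Between Upf2-labelled and Hbs1l MEFs 2 passed, against 15.5% of all genes: Vcp was higher in the former (0.42, SE 0.08, adjusted p = 0.00321) and Wdr61 lower (−0.19, SE 0.06). Skiv2l gave 0.00, 0.06 and −0.06 (SE 0.08 to 0.09) in these contrasts and Zfp598 0.20, 0.04 and 0.16, none past the threshold. Genotype and pool change together here. Each genotype was also taken against the controls of its own pool over 12 libraries. There, Vcp between Pelo and Upf2-labelled MEFs still passed and the other 8 differences did not. Sizes were close to those given (Ascc3 0.28 and 0.25, adjusted p = 0.0896 and 0.164). That fit counts repeat runs of the controls as separate libraries, so its calls do not settle these differences. With 1 of the 12 libraries left out of the first fit, both Vcp differences passed each time. Ascc3 was lost in 8 and 10 of the 12 fits, Nemf between Pelo and Upf2-labelled MEFs and Wdr61 in 7 each. Ltn1 was lost without Hbs1l replicate 1, Xrn1 without Upf2-labelled replicate 1 or 2, and Nemf between Pelo and Hbs1l MEFs without replicate 3 of either.

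The response to loss of Hbs1l was also compared between tissues. In no pair did a member pass, where the test of the difference called 0.732% of 14624 genes between embryo and cerebellum, 7.46% of 13062 between embryo and MEF and 4.87% of 14446 between cerebellum and MEF. At an unadjusted p under 0.05 there were 2, 2 and 3 members, against 15.7%, 24.2% and 20.1% of all genes. The nearest was Skiv2l, whose response was lower in embryo than in MEF by 0.64 (SE 0.21, adjusted p = 0.065 in edgeR and 0.0458 in DESeq2). Between cerebellum and MEF, all 10 differences were below 0, with a median of −0.34 against 0.054 over all genes. The loss itself differed between tissues. The log2 change of Hbs1l footprints was 2.68 (SE 0.25) higher, so a smaller fall, in cerebellum than in MEF. In embryo it was lower than in cerebellum (−2.11, SE 0.39). Extent of loss, tissue, strain, age and batch change together here and cannot be told apart.

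RNA was measured in MEFs only, as estimated counts summed per gene and scaled to CPM. Zfp598 was the member whose RNA rose in every genotype against the shared controls. It was at 65.5, 58.7 and 57.4 CPM in Hbs1l, at 62.0 and 59.3 in Pelo and at 61.0, 67.5 and 73.1 in Upf2-labelled MEFs, with controls at 40.4, 41.5 and 43.7 in the scaling with Hbs1l, all apart. The log2 differences were 0.53 (SE 0.09, adjusted p = 0.00529), 0.54 (SE 0.08, adjusted p = 0.00421) and 0.66 (SE 0.11, adjusted p = 0.00208). Without Pelo replicate 1 the second of these had an adjusted p of 0.0550.

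In Hbs1l MEFs 3 members passed for RNA, against 23.1% of 15318 genes and 12.7% as higher. Beside Zfp598, Skiv2l RNA rose (55, 45.8 and 47.3 CPM against 39.7, 37.0 and 41.1, 0.33, SE 0.10, adjusted p = 0.0484) and Nemf RNA fell (15.9, 21.4 and 23.3 against 24.9, 31.2 and 29.3, −0.49, SE 0.15, adjusted p = 0.0458). The Skiv2l call was lost without any 1 library, and that of Nemf without control replicates 2 or 3 or Hbs1l replicates 1 or 2. In Upf2-labelled MEFs 2 passed, against 20% of 15983 genes and 13.2% as higher: Zfp598 and Ankzf1 (10.7, 9.71 and 12.2 CPM against 7.33, 6.58 and 8.51, 0.53, SE 0.16, adjusted p = 0.0358). The Ankzf1 value was 0.18, and did not pass, when only its protein_coding transcripts were summed, and the call was lost without control replicates 1 or 2 or mutant replicates 1 or 3. Wdr61 RNA gave −0.39 with Hbs1l and −0.45 with the Upf2 label, neither past the threshold in edgeR. DESeq2 called both (adjusted p = 0.0306 and 0.0367).

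In Pelo MEFs, with 2 RNA libraries, 5 members passed where 32.1% of 14705 genes did (15.5% higher, 16.6% lower). Ascc3 RNA was at 13.1 and 7.24 CPM against 24, 36 and 28.5, lower by a log2 difference of −1.53 (SE 0.27, adjusted p = 0.00688). Nemf was at 11.3 and 11 against 24.5, 31.8 and 29.2 (−1.36, SE 0.14, adjusted p = 0.00116), Wdr61 at 23.9 and 26.6 against 51.3, 43.4 and 47.3 (−0.90, SE 0.11, adjusted p = 0.002) and Ttc37 at 18.0 and 12.6 against 25.9, 30.6 and 25.9 (−0.84, SE 0.17, adjusted p = 0.0111, lost without Pelo replicate 2). All Pelo libraries lay below all controls for these 4 genes, and for Vcp and Xrn1, and above them for Zfp598 and Ankzf1. Such separation, with 2 libraries against 3, held for 62.2% of all genes. Xrn1 gave −0.61 (adjusted p = 0.0796 in edgeR and 0.0359 in DESeq2), Skiv2l 0.03, Ltn1 −0.25 and Vcp −0.07.

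The RNA differences moved with base composition across the genome. In Pelo MEFs the median RNA difference of all genes ran from −0.88 for transcripts under 40% G and C to 0.087 for those of 55% or more, in Hbs1l MEFs from −0.35 to 0.15 and in Upf2-labelled MEFs from −0.24 to 0.17. Genes within 1 percentage point of Ascc3, Nemf, Ttc37 and Wdr61 had medians of −0.50, −0.49, −0.42 and −0.11 in Pelo MEFs, and those like Zfp598 had 0.077. Corrected for this trend, an alternative chosen after seeing the data, Zfp598 RNA was still higher by 0.37, 0.43 and 0.46 in Hbs1l, Pelo and Upf2-labelled MEFs and passed in each. In Pelo MEFs Ascc3 (−1.01), Nemf (−0.86) and Wdr61 (−0.76) passed, while Ttc37 (−0.39, adjusted p = 0.0574) did not. In Hbs1l MEFs neither Nemf (−0.27, adjusted p = 0.071) nor Skiv2l (0.18, adjusted p = 0.095) passed. Whether the trend comes from the libraries or the cells was not tested.

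**Figure D4:**
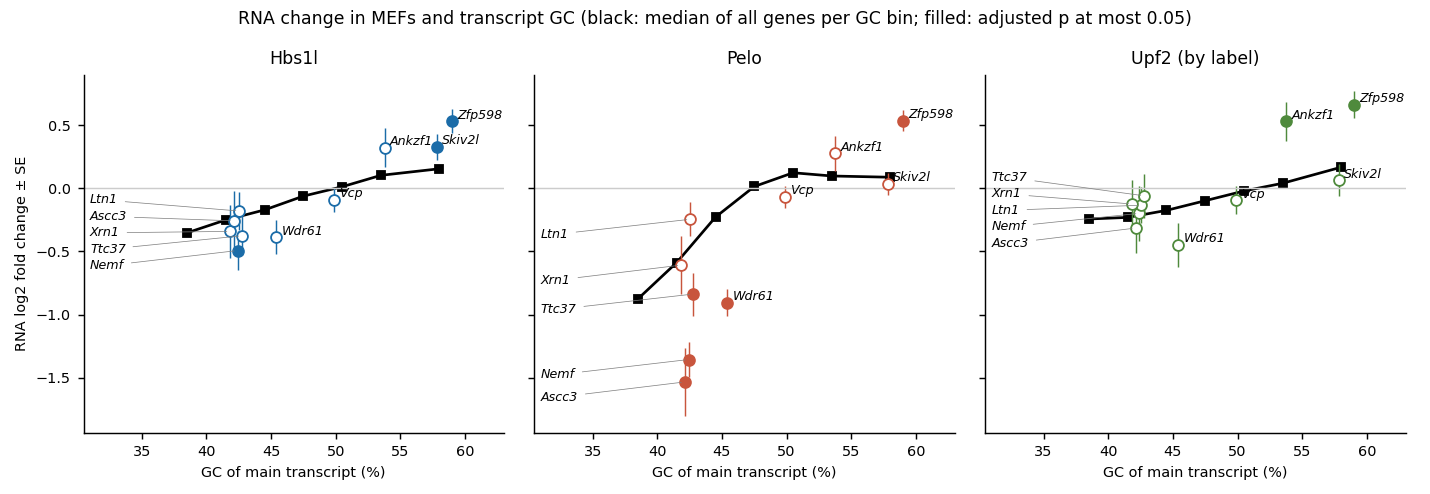
RNA log2 fold change of the 10 genes in MEFs, with its standard error, against the G and C content of the main transcript in percent, with the median of all genes in each content bin as a black line and filled points for an adjusted p of at most 0.05. Zfp598 lies above the line in each panel, and Ascc3, Nemf and Wdr61 lie below it in Pelo MEFs.

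At the level of single transcripts, few member transcripts passed, against 1.31%, 2.37% and 5.35% of all transcripts in Hbs1l, Pelo and Upf2-labelled MEFs. In Hbs1l MEFs none of 26 did (5 at an unadjusted p under 0.05, against 17.7% of all transcripts, and 3 in DESeq2). In Pelo MEFs the main coding transcripts Nemf-201 (−1.35), Ttc37-205 (−0.99) and Wdr61-201 (−0.98) fell, of 24 tested, and none did after the G and C correction or with any library left out. In Upf2-labelled MEFs 2 of 29 rose, Zfp598-201 (0.67, SE 0.12, adjusted p = 0.0312) and Zfp598-203, a transcript annotated with a retained intron (1.34, adjusted p = 0.0342). The latter was at 1.23, 1.64 and 1.58 TPM, a level scaled for transcript length and library size, in Upf2-labelled MEFs, at 0.596, 0.642 and 0.483 in controls, at 1.06 and 1.00 in Pelo MEFs and at 0.436 to 0.7 in Hbs1l MEFs, and both calls were lost without any 1 library. The Ankzf1 transcript annotated as a target of nonsense-mediated decay was at 0.995, 0.283 and 0.633 TPM in Upf2-labelled MEFs and listed at 0, 0 and 0.162 in controls (adjusted p = 0.201).

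Footprints and RNA parted most in Pelo MEFs. Translation efficiency, taken as the footprint difference beyond the RNA difference and tested as an interaction, rose for 6 of the 10 genes there and fell for none, where 40.5% of 13701 genes passed and 21.9% rose. Ascc3, with more footprints and less RNA, gave 2.23 (SE 0.25, adjusted p = 2.95e-05), Nemf 1.3 (SE 0.17), Wdr61 0.89 (SE 0.12), Ttc37 0.88 (SE 0.17), Xrn1 0.77 (SE 0.22) and Skiv2l 0.36 (SE 0.11). Zfp598, whose footprints and RNA rose by similar amounts, gave −0.06. Genes within 1 percentage point of G and C content had medians of 0.55 for Ascc3, 0.54 for Nemf, 0.48 for Ttc37, 0.14 for Wdr61, 0.59 for Xrn1 and −0.039 for Skiv2l. After the correction the values were 1.76, 0.86, 0.48, 0.79, 0.27 and 0.44 in that order, and Xrn1 was the 1 call lost (adjusted p = 0.222). Skiv2l was also lost without control footprint replicate 1, Pelo footprint replicate 1 or either Pelo RNA library, and Xrn1 without Pelo RNA replicate 2.

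In Hbs1l MEFs, none of the members passed for translation efficiency in edgeR, which called 0.0152% of 13146 genes, while 6 had an unadjusted p under 0.05, against 16.1% of all genes, and DESeq2 called Nemf (0.74, adjusted p = 0.0163) and Ttc37 (0.60, adjusted p = 0.0473). In Upf2-labelled MEFs Ascc3 (0.75, SE 0.23, adjusted p = 0.0342) and Vcp (0.47, SE 0.14, adjusted p = 0.0312) passed, against 18.0% of 13302 genes, and each was lost without any 1 of 7 of the 12 libraries. For Ascc3 these were control RNA replicates 2 and 3, control footprint replicates 1 and 2, mutant RNA replicate 3 and mutant footprint replicates 1 and 2. For Vcp they were control RNA replicate 3, control footprint replicates 1 and 3, mutant RNA replicate 3 and each mutant footprint library. After the G and C correction the values were 0.59 and 0.45, both past the threshold, and Skiv2l passed as well (0.39, adjusted p = 0.0273). DESeq2 also called Xrn1 (0.61, adjusted p = 0.044).

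**Figure D5:**
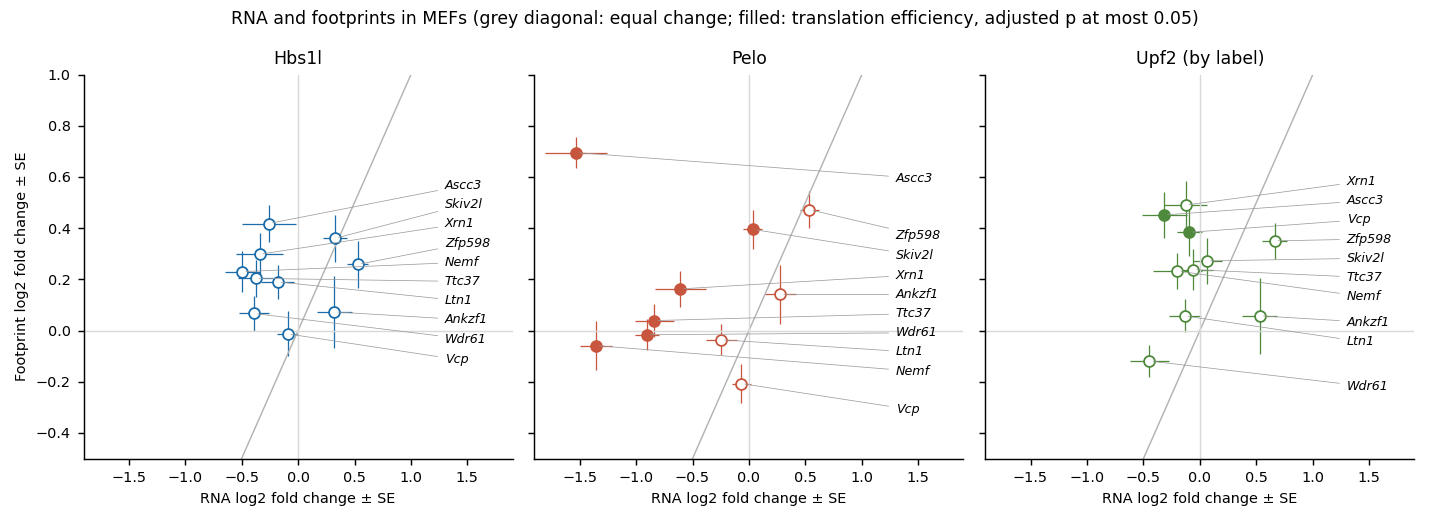
Footprint against RNA log2 fold change of the 10 genes in MEFs, each with its standard error, with the grey diagonal where they are equal and filled points where translation efficiency passed at an adjusted p of at most 0.05. Ascc3 in Pelo MEFs lies farthest from the diagonal, and the 6 filled points of that panel are all above it.

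The members' footprints per unit of RNA already differed in control MEFs. On the scale of footprint CPM per kb over TPM, Xrn1 was highest at 6.02, followed by Ltn1 at 4.68, Ttc37 at 3.68, Ascc3 at 3.52 and Nemf at 3.51. These are ratios of group means. Control TPM ran from 1.88 to 2.90 for Xrn1 and from 4.44 to 7.60 for Ascc3, so the order of genes with close ratios is not settled. Wdr61 stood at 2.43, Ankzf1 at 1.77, Zfp598 at 1.52 and Skiv2l at 1.36, so the genes with the lowest G and C content had the highest ratios. Vcp, at 313 TPM and 51.3 CPM per kb, gave 0.164, a value that the shared windows with Vcp-rs leave uncertain.

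Likeness was taken over the 12 MEF footprint libraries (9 mutant and 3 summed controls), which differ in depth and pool. For each member, the genes whose log2 CPM was most alike were named, out of 9808 genes. For Ascc3 these were Ddx60 (Pearson r = 0.979) and Ifih1 (0.975), both helicases of the response to foreign RNA. For Zfp598 they were Lonp1 (0.966) and Fdxr (0.965), for Skiv2l Zc3h4 (0.935) and Ppp1r15b (0.929), for Nemf Ipo7 (0.953) and Chd1 (0.946), for Ltn1 Parg (0.926) and Prkdc (0.922), and for Vcp Synj2 (0.970) and Acad8 (0.964). Those of Xrn1 were Klhl7 (0.978) and Fndc3a (0.960), of Ttc37 Mcu (0.935) and Adgrl3 (0.911), of Wdr61 Pdha1 (0.940) and Kdm1b (0.924), and of Ankzf1 Acaa1a (0.870) and BC052040 (0.861). Among members, Ascc3 was most alike with Skiv2l (0.798) and Zfp598 (0.764), and Wdr61 and Vcp were opposed (−0.706).

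The partners of the members behaved unevenly in MEF footprints. Of 12 exosome genes, 7 rose with Hbs1l, 9 with Pelo and 8 with the Upf2 label, against 17.4%, 22.9% and 22.3% of all genes, and none fell. The list holds the core, which the Ski complex feeds in the cytoplasm, and also Exosc10 and Dis3, nucleases found mainly in the nucleus, which rose in each genotype. Its medians were 0.30, 0.45 and 0.44. None fell under any alternative run, and 5 to 9, 6 to 10 and 7 to 8 rose. Dis3 gave 0.65 (SE 0.08) and the core subunit Exosc8 0.56 with Hbs1l, Exosc7 and Exosc3 gave 0.69 each with Pelo, and Exosc2 (1.01) and Exosc3 (0.82) led with the Upf2 label. In RNA, by contrast, 6 of 11 rose with Hbs1l, 2 fell with Pelo (Exosc9, −1.46, and Exosc8, −0.39) and 2 rose with the Upf2 label, where 12.7% of all genes rose, 16.6% fell and 13.2% rose. Over the alternatives these counts ran from 4 to 6, 1 to 3 and 1 to 3. Of Ascc1, Ascc2 and Trip4, the other subunits of the ASC-1 complex, the only call in MEF footprints was a fall of Ascc1 with Pelo (−0.32, SE 0.09, adjusted p = 0.0159), lost without control replicate 1. After the G and C correction 1 of them rose with the Upf2 label.

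Of 13 genes that sense or signal collisions, 4 rose and 4 fell with Hbs1l, 4 rose and 2 fell with Pelo, and 3 rose and 1 fell with the Upf2 label, while 34.1%, 44.1% and 43.4% of all genes were called. Over the alternatives, 2 to 4 rose and 2 to 4 fell with Hbs1l, 3 to 4 and 2 to 3 with Pelo, and 2 to 3 and 1 with the Upf2 label. Map3k20, the kinase that collided ribosomes activate, fell in each, by 0.49, 0.60 and 0.60. Of 8 decapping genes, which prepare mRNA for Xrn1, 2 rose with Hbs1l, 2 rose and 1 fell with Pelo, and 3 rose and 1 fell with the Upf2 label, against the same shares of all genes. Over the alternatives 1 to 3, 1 to 3 and 2 to 4 rose, and the single falls with Pelo and with the Upf2 label were lost in some. Dcp2, the decapping enzyme, gave 0.91 with Pelo and 0.54 with the Upf2 label, and Edc3, an enhancer of decapping, 0.23, 0.26 and 0.34, of which the first and second were not called by DESeq2 (adjusted p = 0.1 and 0.0513). Of 6 further factors of the large subunit, Rchy1 fell by 0.54 with Pelo and by 0.46 with the Upf2 label, and no other passed. Under some alternatives 1 further factor was called, lower with Hbs1l or Pelo or higher with the Upf2 label. Of 5 rescue genes, 2 rose and 1 fell with Hbs1l, 1 rose and 2 fell with Pelo, and 2 rose and 1 fell with the Upf2 label, where Hbs1l and Pelo are the genes removed in their own MEFs. Gtpbp1, a relative of Hbs1l, rose by 0.55, 0.53 and 0.50, Gtpbp2 by 0.62 with the Upf2 label and Abce1, which splits ribosomes, by 0.25 with Hbs1l. Hbs1l footprints fell by 0.37 with Pelo (adjusted p = 0.00692) and by 0.26 with the Upf2 label (adjusted p = 0.0395, lost under DESeq2, with the replicate block and without any of 4 of the 6 libraries). In embryo and cerebellum, none of these genes but Hbs1l itself passed, and its call in cerebellum was lost with the replicate block and without any of 4 of the 6 libraries. In embryo, 4 of the 12 exosome genes had an unadjusted p under 0.05, against 18.6% of all genes, with a median of −0.13 over the 12. Under alternatives up to 4 exosome genes were called lower and up to 1 higher, both without Hbs1l replicate 1.

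Zfp598 and Ascc3 were the members of the collision step that rose in each MEF genotype, and the 250 bases before their RefSeq starts (GRCm38.p6) are therefore shown, Zfp598 from chr17:24669437-24669686 and Ascc3 from chr10:50592419-50592668, both on the forward strand and 5′ to 3′, with the letters GGGCGG in capitals. Of the 10 members, 8 have an entry among the RefSeq promoters used. On both strands, GGGCGG occurred 2 times each in these promoters, 1 time in that of Xrn1 and not in the other 5 entries, and 32.7% of all 32851 promoters hold it. Of 4 other motifs searched on both strands, CCAAT (33.8% of all promoters), TATAAA (12.4%), TGATGNAAT (0.816%) and CCGGAAG (6.91%), none occurred in either of these 2 promoters.
Zfp598: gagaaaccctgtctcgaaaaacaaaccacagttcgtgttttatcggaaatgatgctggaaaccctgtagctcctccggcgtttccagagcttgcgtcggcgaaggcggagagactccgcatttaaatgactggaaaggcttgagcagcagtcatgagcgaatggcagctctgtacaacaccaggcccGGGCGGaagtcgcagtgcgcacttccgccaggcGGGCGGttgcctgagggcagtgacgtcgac
Ascc3: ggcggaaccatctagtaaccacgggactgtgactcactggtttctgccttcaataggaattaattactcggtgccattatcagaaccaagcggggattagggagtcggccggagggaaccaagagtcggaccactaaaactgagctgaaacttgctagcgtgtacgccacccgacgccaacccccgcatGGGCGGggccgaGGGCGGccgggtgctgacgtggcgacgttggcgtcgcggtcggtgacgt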

How the data were processed

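The authors deposited footprint values as raw counts per gene: per their methods, reads were cleared of ribosomal RNA with Bowtie2 2.2.3, mapped to mm10 with HISAT2 2.1.0 and counted over coding sequences with featureCounts. For RNA, the deposited values are estimated counts and TPM per transcript made by the authors with kallisto 0.42.4, and no multi-mapping or strand setting of the footprint counting is given in the sources used here. The submitters excluded 1 Pelo RNA sample.

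Counts were tested with edgeR 4.0.16 in R 4.3.3 (default filter on low counts, trimmed mean of M values factors, quasi-likelihood test). Benjamini-Hochberg adjustment ran over every gene tested, with 0.05 as threshold. Histone genes did not enter footprint fits. For each gene, the estimated counts of its transcripts were added up and made whole. Translation efficiency came from 1 fit of both assays, as the genotype effect in footprints beyond that in RNA. Alternatives were DESeq2 1.42.0, other size factors, other filters, a correction for G and C content, a replicate block and leaving out each library. The correction subtracted a lowess trend (span 0.3) and was chosen after seeing the data. Scripts were tested on simulated data, whose set spread may differ from that of the libraries. Of simulated 1.5-fold changes, 29% were recovered in Pelo MEF footprints and 9% in embryo footprints. For translation efficiency with the Upf2 label, and for the Hbs1l response between embryo and cerebellum, 1% were. A gene that did not pass may therefore still have changed.

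The members and the lists of partners and markers were chosen with earlier results of these data known. The rule named all 10 members, the targeted genes, up to 2 genes per partner list and comparison with the largest change among those called with a mean of at least 5 CPM, and the 2 genes most like each member. Coordinates are from Gencode on GRCm38. Intervals and p-values measure the spread between these libraries.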

Additional observations from a re-analysis of the deposited data

How the results depend on the processing

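No called value of a member changed sign under any alternative run. Of 231 member values per setting, DESeq2 lost 8 calls and added 14, the G and C correction lost 20 and added 6, other size factors lost 4 and added 2, and testing every gene with at least 1 count lost 8 and added 4. The number of members called moved by over 1.5 times, or to or from 0, as follows, and smaller moves are left out. With at least 1 count it was 1 in embryo, 1 between Upf2-labelled and Hbs1l MEFs, and 0 for transcripts of Upf2-labelled MEFs. Under DESeq2 it was 3 for Hbs1l MEF footprints, 2 for translation efficiency with Hbs1l, 1 for the difference of the Hbs1l response between embryo and MEF, 3 for transcripts with Hbs1l and 6 with Pelo. After the G and C correction it was 1 for RNA with Hbs1l, 0 and 1 for transcripts with Pelo and with the Upf2 label, 1 between Pelo and Hbs1l footprints and 4 between control MEF and embryo. With transcripts at 1 TPM or more in every library it was 2, 6 and 1 with Hbs1l, Pelo and the Upf2 label, and with protein_coding transcripts only it was 1 for RNA with the Upf2 label. With controls of each pool over 12 libraries it was 0, 1 and 0 for Pelo against Hbs1l, Pelo against Upf2-labelled and Upf2-labelled against Hbs1l MEFs. That fit counts repeat runs of the controls as separate libraries. In no comparison did all same-numbered samples deviate together (lowest correlation under 0.1 in each), so the numbers were not taken to pair the samples. Single same-numbered pairs reached 0.36 in cerebellum and 0.44 for RNA with Hbs1l, and a pair of unlike numbers reached 0.35 for RNA with the Upf2 label. With the replicate block, of 141 member values, 10 lost their call and 1 gained one. Members called were then 1 for translation efficiency with the Upf2 label and 0 and 0 for transcripts with Pelo and with the Upf2 label. Leaving out 1 library gave 0 to 2 members called in embryo, 0 to 0 in cerebellum, 2 to 6, 3 to 4 and 4 to 7 in Hbs1l, Pelo and Upf2-labelled MEF footprints, 1 to 2, 4 to 6 and 1 to 2 in RNA, 0 to 0, 4 to 6 and 0 to 4 in translation efficiency and 0 to 0 for transcripts. It gave 1 to 3, 2 to 3 and 1 to 2 between genotypes, 0 to 2, 0 to 3 and 0 to 3 for the Hbs1l response between tissues, and 6 to 8, 5 to 7 and 10 to 10 between control tissues. Over all genes, the count called moved in embryo from 214 to 432 (DESeq2), 703 (at least 1 count) and 564 (block), in cerebellum from 9 to 484, 16 and 0, and for translation efficiency with Hbs1l from 2 to 313, 22 and 23, and to 0 with protein_coding transcripts and 3 after the G and C correction. It moved for RNA with Pelo from 4727 to 2955 with the block, for transcripts from 481, 826 and 2175 to 3738, 4496 and 5639 under DESeq2 and to 0, 0 and 112 with the block, and between genotypes from 2468, 3719 and 1990 to 695, 1648 and 608 with the controls of each pool. For transcripts with Hbs1l it was also 265, 910 and 1648 with at least 1 count, the G and C correction and 1 TPM, and with Pelo 0 and 2519 for the last pair. DESeq2 gave 581 in place of 107 between embryo and cerebellum and 1111 in place of 703 between cerebellum and MEF for the Hbs1l response. Fits that leave 1 Pelo RNA library assume that it varies like the other group. The cause of these moves was not tested. Embryo groups had the lowest footprint depth, with medians of 2933378 and 4352873 counts a library.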
